A study of Mus musculus with 6 samples.

Results

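Cytosolic ribosomal proteins are the protein subunits of the ribosomes that translate nuclear messenger RNA, and in this study 1 of them, Rpl10a, also carried the tag by which ribosomes were collected. Members were the probe sets that name exactly 1 gene in the platform annotation and whose symbol is Rpl or Rps with digits and an optional closing letter, l or x, plus Rpsa, Rplp0, Rplp1 and Rplp2. S6 kinases and pseudogene symbols were left out. This gave 100 of 45037 probe sets, for 46 genes. Of these, 81 probe sets for 42 genes had a mean intensity of at least 50 in at least 1 group and were tested. No probe set named Rpl10, Rplp1 or Rps27a alone, and 110 probe sets that name a ribosomal protein together with other genes were not used.

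The series compared 2 populations of pyramidal cells of the mouse cortex by translating ribosome affinity purification (TRAP), in which a transgene on a bacterial artificial chromosome (BAC) puts a tagged ribosomal protein into cells that use a chosen driver gene. Ribosome-bound RNA came from the untreated cortex of S100a10 mice (line ES691) and Glt25d2 mice (line DU9), backcrossed for 3 to 5 generations from FVB onto C57BL/6, and the labels give no age. All 6 arrays therefore hold RNA pulled down with tagged ribosomes, and each group held 3 biological replicates, each on 1 array. Each driver is represented by 1 transgenic line, and the series text states that the S100a10 BAC also marks cells that are not neurons. Values are GCRMA intensities, and a difference is the log2 value of S100a10 minus Glt25d2 arrays with limma's p adjusted over all 21291 probe sets tested (Benjamini-Hochberg, threshold 0.05). "Called", "higher" and "lower" refer to that threshold.

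The labelled cells were checked against marker lists, whose levels differ between the groups beside every result below. Of all probe sets tested 44.2% were higher in S100a10 arrays and 4.39% lower. A tested gene under 50 in every array of a group entered the test through the other group. Its call is no support for a difference. Each sum follows its brightest genes and is no measure of the amount of a cell type. Of 8 listed genes of mural cells and fibroblasts, 7 were tested and all 7 were higher in S100a10 arrays. The summed intensity of all 8 was 282 to 460 in Glt25d2 arrays and 12088 to 15592 in S100a10 arrays, and 6 of the 8 lay under 50 in every Glt25d2 array, namely Col1a1, Col1a2, Lum, Pdgfrb, Myl9 and Ogn. Of 7 excitatory neuron genes 2 were higher and 0 lower (55911 to 59716 against 72219 to 73406), with none under 50 throughout a group. Snap25, the brightest of them and not called, had means of 40285 in Glt25d2 and 49147 in S100a10 arrays. Syt1, the next and not called, read 13806, 12212 and 2258 in Glt25d2 arrays. Camk2a alone had a negative difference, at -0.43 (not called). Of 5 layer 5 subcerebral neuron genes 4 were lower in S100a10 arrays, with sums of 59161 to 65622 in Glt25d2 and 47127 to 49261 in S100a10 arrays. Pcp4, the brightest of them and not called, had means of 37234 in Glt25d2 and 40330 in S100a10 arrays. Of 6 interneuron genes 3 were higher and 1 lower (11645 to 17277 against 16731 to 21139). Of 5 astrocyte genes 2 were higher and 1 lower (520 to 1237 against 6762 to 7194), with Gfap under 50 in every S100a10 array. Gjb6 alone had means of 87.0 in Glt25d2 and 4814 in S100a10 arrays. Aldh1l1 lay at 2.23 and Slc1a3 at 2.49 (not called), while Gfap lay at -1.56 and Aqp4 at -0.59 (not called). Of 4 oligodendrocyte genes 1 was lower (6551 to 9838 against 3244 to 4898). Of 4 microglial genes 1 was higher (292 to 470 against 504 to 798), with Cx3cr1 and Tmem119 under 50 in every Glt25d2 array. Of 4 endothelial genes, 2 were tested and 1 was lower (195 to 612 against 148 to 170), with Pecam1 and Flt1 under 50 in all 6 arrays. Of 4 ependymal and choroid plexus genes, 2 were tested and both were higher (55.6 to 58.4 against 548 to 881), with Folr1 and Foxj1 under 50 in all 6 arrays. The 2 tested, Ttr and Rarres2, lay under 50 in every Glt25d2 array. Ttr passed 50 in S100a10 replicate 3 alone (36.9, 45.2 and 261). The part of these cell types in the ribosomal protein differences was not tested, and in such bulk samples fewer cells of a type and less RNA per cell cannot be told apart.

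A ribosome has a large subunit, which joins amino acids, and a small subunit, which reads the messenger. Most cytosolic ribosomal proteins are made in equal numbers, and their messengers are known for a tract of pyrimidines at the 5′ end through which growth signals control their translation together. Neurons also translate part of their messengers in dendrites and axons, and their ribosomal protein messengers are among those found there. Since TRAP collects messengers on ribosomes, the values below follow both how much of a messenger a cell holds and how much of it is on ribosomes.

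Promoter windows of 40 of the 46 genes were found in the RefSeq table for GRCm38.p6 (250 bases before to 50 after an annotated start, 1 window for each gene, the one listed first). They are shown because the pyrimidine tract is a feature that the choice by name did not use. An unbroken run of at least 8 C or T bases that overlaps, by any length, the 20 bases on either side of the start, read on the gene's strand, was present in 20 of the 40 genes, against 20.8% of 27025 genes in the table. It was present in 12 of the 20 genes with a probe set called higher and in 8 of the other 20. The letters TTCCGG, chosen after the windows had been seen and searched on both strands of the whole window, were present in 24 of the 40 genes, against 15.2% of all. The pyrimidines of TTCCGG can be part of a run. Stretches from 60 bases before to 20 bases after the annotated start follow for genes described below, 5′ to 3′ on the gene's strand, with such runs in capitals. Rplp2 lies at chr7:141447591-141447670 (plus strand), Rps18 at chr17:33955646-33955725 (minus), Rps28 at chr17:33824543-33824622 (minus), Rpl4 at chr9:64173327-64173406 (plus), Rpl10a at chr17:28328411-28328490 (plus), Rps27l at chr9:66946026-66946105 (plus) and Rpl39l at chr16:10170168-10170247 (plus).
Rplp2: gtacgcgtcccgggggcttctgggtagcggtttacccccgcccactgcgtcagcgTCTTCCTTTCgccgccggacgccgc
Rps18: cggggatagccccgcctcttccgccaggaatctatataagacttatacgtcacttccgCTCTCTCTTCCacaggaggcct
Rps28: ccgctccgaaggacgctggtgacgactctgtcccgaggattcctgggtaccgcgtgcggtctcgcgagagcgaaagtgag
Rpl4: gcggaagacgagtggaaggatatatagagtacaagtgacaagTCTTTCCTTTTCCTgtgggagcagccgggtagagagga
Rpl10a: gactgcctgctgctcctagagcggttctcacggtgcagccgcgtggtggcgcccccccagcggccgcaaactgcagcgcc
Rps27l: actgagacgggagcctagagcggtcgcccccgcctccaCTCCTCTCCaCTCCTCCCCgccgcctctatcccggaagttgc
Rpl39l: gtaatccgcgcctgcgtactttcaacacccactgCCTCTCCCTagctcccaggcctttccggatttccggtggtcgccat
The run in Rplp2 is 10 bases long and starts 5 bases before the annotated start, and that in Rps18 is 11 bases long. The longest run shown, of 14 bases, is that of Rpl4, whose probe set was not called, and Rps28, called higher in all 3 of its probe sets, and Rpl10a have no such run at their first listed start. That of Rpl39l starts 26 bases before the start and reaches the 20 bases with its end.

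Most ribosomal protein probe sets were brighter in S100a10 arrays as deposited, at 76 of 81 against 17078 of all 21291, while after centring each array on its median 57 of the 81 were dimmer there. Of the 81 probe sets tested, 43 were called higher in S100a10 arrays and 1 lower, where 44.2% of all probe sets tested were higher and 4.39% lower. Rpl39l is counted among the 43 but passed the limit of 50 through S100a10 arrays alone. The median difference of the 81 was 0.48, with Rpl39l at its bound as well, against 0.55 for all probe sets. After quantile normalization of the 6 arrays, 24 were higher and 4 lower (16.8% and 19.4% of all), with a median of 0.19 against -0.06 for all. After centring, 4 were higher and 31 lower (15.8% and 30.3% of all), with a median of -0.29 against -0.21. The values of the arrays did not overlap between the groups for 56 probe sets with S100a10 above and for 2 with S100a10 below, against 55.1% and 7.63% of all.

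The deposited values of the groups lay apart unequally for bright and dim probe sets, and ribosomal proteins are among the brightest on the array. The cause was not tested. When the values of each array were sorted, the S100a10 arrays lay above the Glt25d2 arrays by 0.93 (log2) at the rank where Glt25d2 arrays read 50, by 0.47 at the rank of 1000 and by 0.17 at the rank of 16000. Of the 81 members, 60 probe sets for 33 genes had a mean over both groups of 4000 or more, a boundary chosen after the values were seen. Among these 60, 33 were higher and 1 lower, while 27.4% of the 2160 probe sets at that level were higher. The median difference of the 60 was 0.48, against 0.20 for all probe sets of that level. After quantile normalization, 20 of the 60 were higher, against 11.9% of all at that level, and the medians were 0.25 and -0.02. The distance between the 2 medians was thus 0.28 as deposited and 0.27 after quantile normalization, and centring, which moves all probe sets of an array alike, leaves it at 0.28. Genes with several probe sets count more than once among the 60. Medians with 1 probe set a gene were not taken at that level. Over all levels, 1 probe set a gene gave medians of 0.38 as deposited and 0.14 after quantile normalization. For the 81 probe sets these medians were 0.48 and 0.19. The sign of the 60 turned with centring, to a median of -0.29 against -0.57 for all of that level. The 6 members with a mean under 300 lay the other way, with a median of 0.27 against 0.76 for the 9615 probe sets of that level. The plot of differences against level shows these medians beside the running median of all.

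The tag carrier's difference between the lines did not pass the test as deposited. Rpl10a, a protein of the mobile stalk beside the exit site for transfer RNA, had 1 probe set, which read 13977, 12244 and 14953 in Glt25d2 arrays and 16127, 15595 and 16584 in S100a10 arrays. All S100a10 arrays lay above all Glt25d2 arrays, by a small margin. The difference was 0.23 (SE 0.11, limma adjusted p = 0.13), which did not pass. It was 0.07 after quantile normalization, which did not pass, and it was called lower in S100a10 arrays after centring, at -0.53 (limma adjusted p = 0.017). Whether this probe set also reads the messenger of the tagged transgene was not tested.

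Proteins of the stalk that recruits elongation factors were higher in S100a10 arrays. Rplp2, an acidic stalk protein, read 18362, 17498 and 16553 in Glt25d2 arrays and 36012, 29676 and 34133 in S100a10 arrays. The groups were far apart, by 0.93 (SE 0.11, limma adjusted p = 0.0014), or 1.90-fold. Rplp0, the base of the stalk, read 9450, 7909 and 8430 in Glt25d2 and 16547, 12184 and 17734 in S100a10 arrays, and S100a10 replicate 2 was the lowest of its group. The difference was 0.83 (SE 0.17, limma adjusted p = 0.010), and both stalk genes were also higher after quantile normalization, at 0.74 and 0.66, and did not pass after centring, at 0.16 and 0.07. Rpsa, a small subunit protein also known as the laminin receptor, read 7108, 5621 and 4797 in Glt25d2 and 6732, 5872 and 6690 in S100a10 arrays. Its groups overlapped, and the difference of 0.15 (SE 0.17) did not pass and turned to -0.09 after quantile normalization and to -0.61, called lower, after centring.

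In the large subunit, 14 of 22 genes tested, the stalk genes among them, had at least 1 probe set called higher, 8 had none called and 0 had one called lower. With 1 probe set a gene 12 of the 22 were higher, where 44.2% of all probe sets were. Rpl13a, which besides its place in the ribosome silences inflammatory messengers, had 4 probe sets, all higher, at 0.60 to 0.98. The one with the largest difference read 3906, 4214 and 3943 in Glt25d2 and 9292, 6842 and 7865 in S100a10 arrays, so that every S100a10 array was above every Glt25d2 array. Rpl22, an RNA-binding protein of the subunit's surface, had 3 probe sets, all higher, at 0.80 to 0.94. Its brightest read 9971, 9078 and 7501 in Glt25d2 and 19393, 15463 and 16053 in S100a10 arrays. Rpl27 had 3 probe sets, all higher, at 0.48 to 0.80, and the one at 0.80 read 6169, 6029 and 6029 against 11082, 9601 and 11084. The 2 equal Glt25d2 values understate the spread of that group. Rpl37a was higher in 2 of 3 probe sets, led by one at 1.03 (SE 0.20), with 5504, 4236 and 3671 in Glt25d2 and 9738, 7529 and 9932 in S100a10 arrays. The probe sets named here for Rpl13a, Rpl22, Rpl27 and Rpl37a remained higher after quantile normalization, at 0.74, 0.75, 0.57 and 0.79, and none of the 4 passed after centring, at 0.21, 0.17, 0.03 and 0.26. Each gene also had a probe set called as deposited that did not pass after quantile normalization. These lay at 0.35 for Rpl13a, 0.37 for Rpl22, 0.38 and 0.28 for Rpl27 and 0.42 for Rpl37a. The remaining called probe sets passed, at 0.60 and 0.36 for Rpl13a and 0.55 for Rpl22.

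The other large subunit genes with a call had smaller or less uniform differences. Among genes with 1 probe set tested, Rpl37 was higher at 0.84, Rpl27a at 0.69, Rpl14 at 0.38 and Rpl8 at 0.38, and after quantile normalization none of these 4 passed, with Rpl14 at -0.22. After centring Rpl14 and Rpl8 were called lower, at -0.38 each. Rpl7 was higher in 2 of 3 probe sets, Rpl41 in 1 of 2 and Rpl35 in 1 of 5. Rpl4, whose loop lines the tunnel by which the new protein leaves, had the lowest difference of the subunit. It read 20865, 19964 and 21932 in Glt25d2 and 19615, 15380 and 19121 in S100a10 arrays, with every S100a10 array below every Glt25d2 array. Its difference of -0.22 (SE 0.13, limma adjusted p = 0.21) did not pass, and it was -0.41 after quantile normalization (adjusted p = 0.054). After centring it was called lower, at -0.99 (limma adjusted p = 0.0029). Rpl7a at 0.05, Rpl6 at 0.08, Rpl38 at 0.28, Rpl11 at 0.30 and Rpl19 at 0.35 did not pass, and all 5 were called lower after centring, at -0.72, -0.69, -0.49, -0.47 and -0.42.

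In the small subunit, 10 of 20 genes tested had at least 1 probe set called higher, 1 had one called lower and 9 had none called. With 1 probe set a gene 9 of the 20 were higher, a share near the 44.2% of all probe sets. Rps18, a protein of the subunit's head that contacts the large subunit, had 3 probe sets, all higher, at 0.88 to 1.02. The one with the largest difference read 3280, 2898 and 2664 in Glt25d2 and 6673, 4650 and 6845 in S100a10 arrays, with S100a10 replicate 2 lowest in its group and still above all Glt25d2 arrays. Rps10, another protein of the head, was higher in 3 of 5 probe sets. The one with the largest difference read 3401, 2760 and 2760 in Glt25d2 and 6734, 6042 and 6829 in S100a10 arrays. It differed by 1.14 (SE 0.13, limma adjusted p = 9.7e-04), and the next by 1.02 (SE 0.16). Both kept a call after quantile normalization, at 0.87 and 0.82, and neither passed after centring, at 0.37 and 0.26. The other called Rps10 probe set did not pass after quantile normalization, at 0.44.

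Rps28, which lies near the path by which the messenger leaves, had 3 probe sets, all higher, at 0.48 to 0.88. The probe set at 0.88 (SE 0.11) read 11443, 10329 and 9583 in Glt25d2 and 19043, 18051 and 20548 in S100a10 arrays, with no overlap. Rps9, which lies near the path by which the messenger enters, had 2 probe sets, both higher at 0.64. The brighter of the 2 read 15245, 15510 and 15510 in Glt25d2 and 24500, 23693 and 23710 in S100a10 arrays. The narrow spread of the Glt25d2 values again includes an identical pair. After quantile normalization these probe sets of Rps28 and Rps9 were higher at 0.70 and 0.48, and after centring they lay at 0.11 and -0.13. The brightest Rps28 probe set and the dimmer Rps9 probe set did not pass after quantile normalization, at 0.28 and 0.35. The remaining Rps28 probe set did, at 0.69. Of the remaining genes with a call, Rps25 was higher at 0.79 (-0.04 after quantile normalization), Rps26 at 0.48, Rps29 in 1 of 3 probe sets and Rps4x at 0.41.

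Rps7, which besides its place in the ribosome binds the p53 regulator Mdm2, was the gene with a probe set called lower. Its _x_at probe set, whose probes can match other transcripts, read 7275, 7637 and 7275 in Glt25d2 and 6023, 4657 and 5959 in S100a10 arrays. The probe sets with array values above for Rpl22 (_s_at), Rpl37a, Rps18, Rps10, Rps28 and Rps9 (_x_at) share this limit, as does that of Rps2. The groups did not overlap, and the value was -0.42 (SE 0.13, limma adjusted p = 0.042), or -0.67 after quantile normalization and -1.19 after centring. The call as deposited was lost when any array except Glt25d2 replicate 3 was left out, at -0.49 to -0.30. Its brighter _a_at probe set read 18065, 18147 and 16844 in Glt25d2 and 18403, 16409 and 18399 in S100a10 arrays, which overlap, with a difference of 0.00 (SE 0.10), or -0.18 after quantile normalization and -0.77, called lower, after centring. Rps2, near the entry path of the messenger, read 16070, 15239 and 13751 in Glt25d2 and 14049, 14098 and 14206 in S100a10 arrays, and its difference of -0.09 (SE 0.10) did not pass. It was -0.26 after quantile normalization, which did not pass, and was called lower after centring, at -0.85 (limma adjusted p = 0.0016). No probe set of Rps3, Rps6, Rps14, Rps15, Rps19 or Rps24 was called as deposited, and the 4 of Rps24 lay between 0.20 and 0.27. After quantile normalization the dimmer Rps6 probe set was called lower, at -1.0, and after centring at least 1 probe set of each of these genes but Rps19 was.

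**Figure D1:**
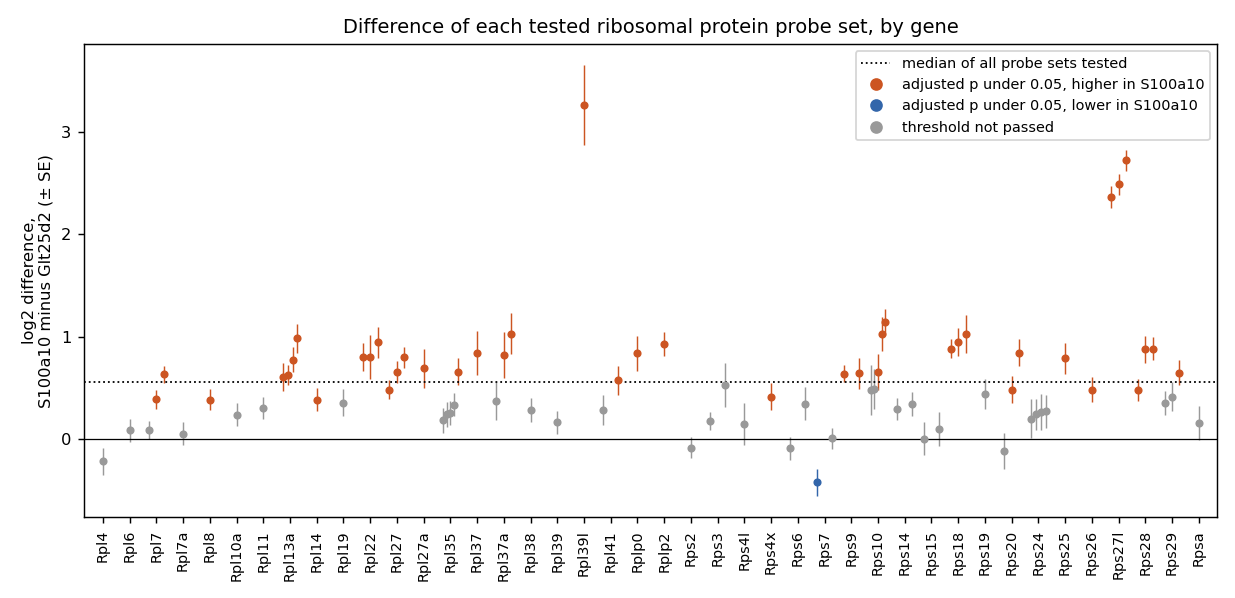
Log2 difference, S100a10 minus Glt25d2, of the 81 ribosomal protein probe sets tested, by gene, with limma's standard error; colour gives the call and the dotted line the median of all probe sets tested, 0.55. The 3 probe sets of Rps27l lie at 2.36 to 2.72 and the others between -0.42 and 1.14, apart from Rpl39l, whose plotted value rests on Glt25d2 intensities under 50 and is no measured size.

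The largest differences among members with a mean of at least 50 in both groups were those of a paralog. Rps27l, a near copy of the zinc-finger protein Rps27 whose gene is known as a target of p53, had 3 probe sets, all higher. The first read 414, 371 and 383 in Glt25d2 and 2230, 2270 and 2054 in S100a10 arrays. The second read 391, 387 and 391 against 2178, 2038 and 1811. The third read 212, 192 and 212 against 1438, 1346 and 1287. Each of the 3 was at least 5-fold apart with no overlap, with differences of 2.49 (SE 0.10), 2.36 (SE 0.11) and 2.72 (SE 0.10) and limma adjusted p values of 2.6e-05, 3.7e-05 and 2.0e-05. The Rps27l differences remained called under quantile normalization, at 1.98, 1.85 and 2.12, under centring, at 1.72, 1.59 and 1.96, and with any 1 array left out. The 3 probe sets name 1 gene and are not 3 independent measurements. Those at 2.49 and 2.72 are _x_at probe sets, whose probes can match other transcripts. That at 2.36 is an _a_at probe set. The probe set of Rps27 itself lay at 12.3 in all Glt25d2 arrays and at no more than 16.4 in S100a10 arrays, under the limit for testing, so the paralogs cannot be compared.

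Rpl39l, a paralog of the exit tunnel protein Rpl39 and known for its level in the testis, was measured above 50 in S100a10 arrays alone. Its probe set read 11.2, 10.5 and 10.5 in Glt25d2 arrays and 179, 101 and 60.5 in S100a10 arrays. All Glt25d2 arrays lay under 50 and the S100a10 arrays spread about 3-fold, from low values. The mean of the S100a10 arrays, 113, was at least 2.27-fold above Glt25d2 arrays, taking 50 for Glt25d2 and the deposited scaling. On that scaling the sorted S100a10 values lay 0.93 (log2) higher at the rank where Glt25d2 arrays read 50. Rpl39l entered the test through its S100a10 level, so its call is no support for a difference. Rpl39 read 267 in every Glt25d2 array and 266, 324 and 307 in S100a10 arrays, and its difference of 0.16 (SE 0.11) did not pass and turned to -0.58 after quantile normalization (limma adjusted p = 0.022).

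Rps4x, the X-linked copy of a small subunit protein, read 18331, 17340 and 17072 in Glt25d2 and 26371, 19989 and 24175 in S100a10 arrays. Its difference of 0.41 (SE 0.13, limma adjusted p = 0.046) lay just past the threshold and did not pass after quantile normalization, at 0.24, nor after centring, at -0.36, nor when any array except S100a10 replicate 2 was left out, at 0.32 to 0.44. Rps4l, its paralog, read 1075, 1128 and 1215 against 1385, 1536 and 931, with S100a10 replicate 3 below all Glt25d2 arrays, and its difference of 0.14 (SE 0.21) did not pass. Rpl3l, the muscle paralog of Rpl3, read 11.2 to 11.8 in Glt25d2 and 6.83 to 7.34 in S100a10 arrays and was not tested.

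**Figure D2:**
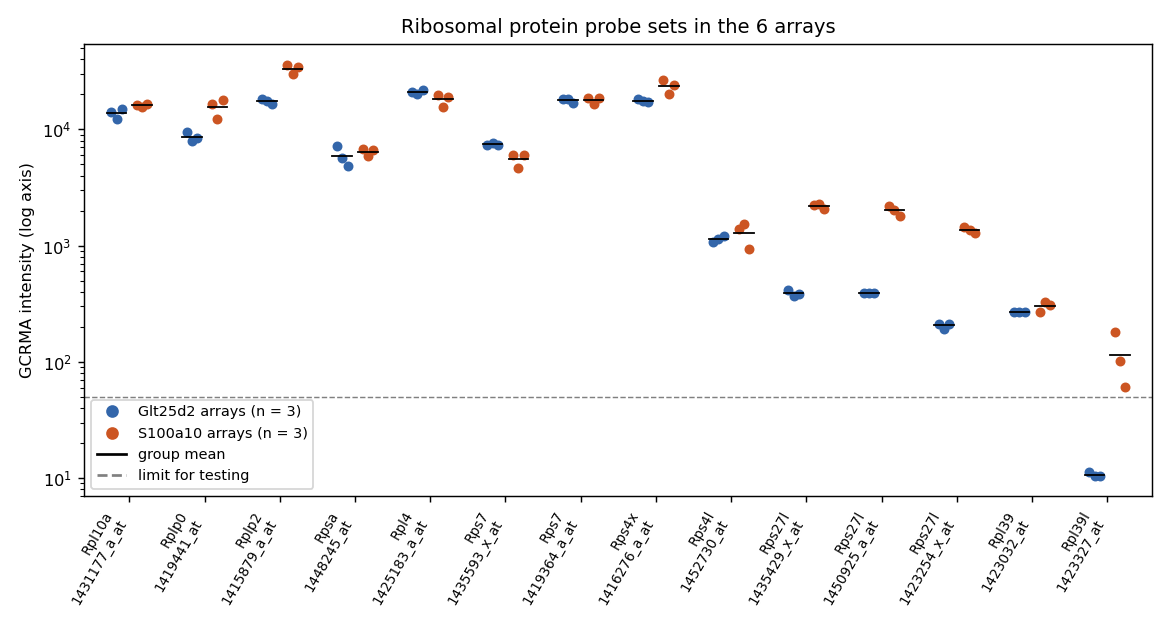
GCRMA intensity of 14 ribosomal protein probe sets in each of the 6 arrays on a log axis, with the group mean (black bar, n = 3) and the limit of 50 for testing (dashed). The S100a10 points of Rps27l lie at 1287 to 2270, above Glt25d2 points of 192 to 414, while those of Rpl10a lie at 15595 to 16584 beside 12244 to 14953.

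A fold of at least 2 together with a call was reached by 8 of the 81 probe sets, all toward S100a10, whereas 24.2% of all probe sets were so toward S100a10 and 1.08% toward Glt25d2. The 8 were those of Rps27l (3), Rpl39l, Rps10 (2), Rpl37a and Rps18. Without Rps27l and Rpl39l the differences ran from -0.42 to 1.14. By subunit, 23 of 38 large subunit probe sets and 20 of 43 small subunit probe sets were higher, with medians of 0.52 and 0.48, and with 1 probe set a gene the medians were 0.38 and 0.38. Whether the subunits differ was not tested.

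Probe sets of a gene did not always give the same call. Of 20 genes with several probe sets tested, 7 had every probe set called higher, 7 had some and 6 had none called higher, and no gene had calls in both directions. The median range of the difference within these genes was 0.35. Rps20, a protein of the small subunit's head, had the widest range. The probe set with its largest difference read 12478, 11580 and 9730 in Glt25d2 and 20803, 18760 and 20832 in S100a10 arrays (0.84, SE 0.13), and its dimmest read 89.4, 108 and 139 against 104, 95.8 and 104 (-0.12, SE 0.18). The first had groups that do not overlap, and the dimmest had groups that do. The dimmest was called lower after quantile normalization, at -1.0, and after centring, at -0.89, and the first was higher at 0.66 and did not pass at 0.08. The brightest Rps20 probe set, called higher as deposited at 0.48, did not pass after quantile normalization, at 0.32. Probe sets whose identifier ends in _s_at or _x_at hold probes that can match other transcripts, and for ribosomal proteins these include pseudogenes. The Rps20 probe set with the largest difference is among them. Of 40 such probe sets 22 were higher and 1 lower, and of the other 41, 21 were higher and 0 lower, with medians of 0.53 and 0.44. The 19 probe sets not tested read 3.85 to 67.6 in all arrays. They belonged to 15 genes, 11 of which had another probe set that was tested, so for these 11 a low reading is that of a probe set and not of its gene. The other 4 genes, Rpl12, Rpl3l, Rps16 and Rps27, had no tested probe set.

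Within each group, some arrays held most ribosomal proteins on the same side of the others. In S100a10 replicate 2, 69 of the 81 probe sets lay below both other arrays of the group, and their median lay 0.20 (log2) below the mean of the others, against 0.01 below for all probe sets tested. Without that array 51 members were higher and 0 lower, against 38.5% and 3.33% of all probe sets. In Glt25d2 replicate 3, 42 of the 81 lay below both other arrays, at a median of -0.10, against 0.09 for all probe sets tested. That array stands apart among all probe sets tested, where 1621 of 21291 were over 4-fold dimmer than in the mean of its group's other arrays. None of the 81 members was among them, and the lowest lay 0.40 below. Without Glt25d2 replicate 3, 43 members were higher and 1 lower (55.1% and 6.01% of all), with a median of 0.42, and 42 of the 43 called with all arrays were called again. Without Glt25d2 replicate 2, 28 were higher and 0 lower, against 34.6% and 2.9% of all. At least 2 Glt25d2 arrays held identical values in 18 of the 81 probe sets, which understates the spread there.

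**Figure D3:**
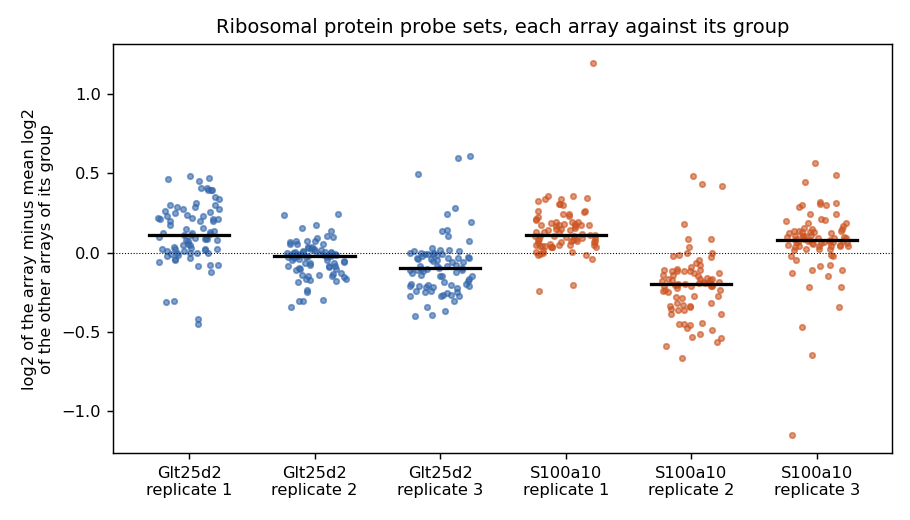
Each of the 81 ribosomal protein probe sets tested as the log2 value of an array minus the mean log2 value of the other arrays of its group, with the median as a black bar. S100a10 replicate 2 has a median of -0.20 and Glt25d2 replicate 3 one of -0.10, while Glt25d2 replicate 1 and S100a10 replicate 1 have medians of 0.11 and 0.11.

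Other genes of translation were counted with 1 probe set a gene, on the deposited scale. Beside their counts stand the shares of all probe sets, 44.2% higher and 4.39% lower as deposited and 16.8% and 19.4% after quantile normalization. The deposited share called higher fell with the mean over both groups. It was 55.1% under 300, 40.4% from 300 to 1000, 32.3% from 1000 to 4000 and 27.4% from 4000 up. Of 20 translation factors and partners tested, 8 were higher in S100a10 arrays and 1 lower, or 2 and 3 after quantile normalization, with medians of 0.27 and 0.07. The deposited share lies near that of all probe sets. Most of these genes had a mean over both groups of 4000 or more, where 27.4% of all probe sets were higher. Eef1d and Eef1b2, subunits of the factor that recharges elongation factor 1A, were higher at 0.73 (SE 0.15) and 0.73 (SE 0.10), and the same 2 genes were those higher after quantile normalization, at 0.49 and 0.54. Naca, which binds new chains at the exit tunnel, was higher at 0.55, and Eif5a, which helps ribosomes over difficult peptide bonds, at 0.50. The call of Naca was lost without Glt25d2 replicate 1 or 2 or S100a10 replicate 3, at 0.51 to 0.55. Eef1d, Eef1b2, Naca and Eif5a all took negative values after centring. Of 3 ribosomal proteins made as fusions or named outside the rule, Rpl7l1 was higher at 0.77 (not called at 0.36 after quantile normalization, at 0.0024 after centring or at 0.72 without Glt25d2 replicate 2), Fau at 0.35 did not pass and Rpl22l1, the paralog of Rpl22, lay at -0.01. Rpl22l1 had means of 7943 in Glt25d2 and 7916 in S100a10 arrays.

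Of 23 genes tested that build ribosomes in the nucleolus, 5 were higher and 0 lower, where 44.2% of all probe sets were higher, with a median of 0.15, and after quantile normalization 1 was higher and 8 lower, with a median of -0.30. Ubtf, a factor of ribosomal RNA synthesis, was higher at 0.87 (SE 0.08) and was the one still higher after quantile normalization, at 0.35. Polr1a, Nop10 and Gar1 were higher at 0.60, 0.58 and 0.58, of which Polr1a turned to -0.30 after quantile normalization and all 3 took negative values after centring. The call of Gar1 was lost when any array except Glt25d2 replicate 3 was left out (0.47 to 0.63), and that of Polr1a when any except Glt25d2 replicate 3 and S100a10 replicate 1 was (0.51 to 0.62). Of 76 genes of the mitochondrial ribosome, 24 were higher and 3 lower, with a median of 0.21. Of all probe sets 44.2% were higher. Of those with a mean of 1000 to 4000, where many of these genes lie, 32.3% were higher. After quantile normalization 5 of the 76 were higher and 16 lower, with a median of -0.20. Mrpl52, Mrps10, Mrps6 and Mrpl54 were highest, at 1.19, 1.11, 1.06 and 1.03, and after quantile normalization at 0.86, 0.72, 0.79 and 0.19. The cytosolic members, with 1 probe set a gene, had medians of 0.38 as deposited and 0.14 after quantile normalization, with 21 of 42 genes higher, or 11 higher and 1 lower. These lists differ in level on the array, and the difference between them was not tested.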

How the data were processed

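TRAP RNA from cortex samples of S100a10 (3) and Glt25d2 (3) mice was amplified in 2 cycles from 15 ng, labelled with biotin and hybridised, per the labels. The values deposited by the authors are linear intensities made with GCRMA per the submitters' processing notes (version not given in the sources used here), which corrects background by probe composition. The table holds 6 separate columns, and its sorted values differ between the groups.

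Of 45101 probe sets 64 controls were left out. Members and gene lists were chosen with earlier results of these data known. All 100 members were found in the RefSeq gene table by Entrez identifier, with 0 symbols changed. Intensities were taken to log2 without pseudocount. Probe sets whose mean reached 50 in either group, the limit in the series text, were tested with limma 3.58.1 in R 4.3.3 (lmFit, eBayes, 2-sided, no block), a step tested on simulated data. The number of arrays limits precision, and p-values measure the spread between these samples. A gene in a list stands for its tested probe set with the highest mean log2. Named probe sets are those of Rpl10a, the stalk, Rpsa and paralogs, the 8 largest differences in each direction without overlap, and 4 genes of each list; Rpl4, Rps2, Rps9, Rps20, Rps28, Rpl13a, Rpl22, Rpl27, the second Rps7 probe set and genes given by range were named after their values were seen. Deviations of same-numbered arrays had correlations of -0.45, 0.22 and -0.24, and those of other pairs ran from -0.40 to 0.45. With 3 arrays a group these cannot show whether arrays were prepared together, and numbers were not used as pairs. The labels number the Glt25d2 arrays rep1 to rep3 and the S100a10 arrays rep1b to rep3b, and give no meaning for the letter. Alternatives were no filter, both means at 50 or more, a pseudocount of 16, quantile normalization, median centring, a trended prior, a replicate block, each array left out, quantile normalization without Glt25d2 replicate 3, members without _s_at or _x_at endings and 1 probe set a gene. Tables and plots were made with matplotlib 3.10.9, numpy 2.4.6 and pandas 2.3.3 in Python 3.11.15.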

Additional observations from a re-analysis of the deposited data

How the results depend on the processing

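The number of arrays, 3 a group, limits every value, and scaling moved the ribosomal proteins most; the cause was not tested. Rps27l was called higher in each of the 14 alternative fits. With quantile normalization 24 members were higher and 4 lower (median 0.19), with 3574 and 4128 of all probe sets (median -0.058), and 17 of 81 members changed sign. These include Rpl14 at -0.22, Rps25 at -0.041, Rpl6 at -0.10, Rpl7a at -0.13, Rpl39 at -0.58, Rpsa at -0.087, Rps4l at -0.33 and the brighter Rps7 probe set at -0.18. Of the other named genes Polr1a turned to -0.30. Quantile normalization without Glt25d2 replicate 3 gave 24 and 5 (median 0.14; 22.4% and 24% of all), 4770 and 5108 of all (median -0.057), with Rpl39 at -0.52, Rpsa at -0.24, Rps4l at -0.29, Polr1a at -0.10 and the brighter Rps7 probe set at -0.22. With median centring 4 members were higher and 31 lower (median -0.29), with 3363 and 6447 of all (median -0.21). Then 52 of 81 members changed sign, among them Rpl14 and Rpl8 at -0.38, Rpl27a at -0.080, Rps26 at -0.29, Rpl6 at -0.69, Rpl7a at -0.72, Rpl11 at -0.47, Rpl19 at -0.42, Rpl38 at -0.49, Rps4x at -0.36, Rpl39 at -0.61, Rpl10a at -0.53, Rpsa at -0.61, Rps4l at -0.63, the brighter Rps7 probe set at -0.77 and the brighter Rps9 probe set at -0.13. Of genes outside the members, Eef1d turned to -0.041, Eef1b2 to -0.042, Naca to -0.22, Eif5a to -0.27, Fau to -0.42, Polr1a to -0.17, Nop10 to -0.19 and Gar1 to -0.19. Not called as deposited, Rpl4 at -0.99, Rps2 at -0.85 and the dimmest Rps20 probe set at -0.89 were called lower with centring. No filter gave 6 members lower, some of them under 50, and 19640 and 5131 of all (median 0.30), and both means at 50 or more gave 0 lower. Members without _s_at or _x_at endings gave 21 higher and 0 lower, and 1 probe set a gene 21 and 0, with fewer probe sets counted. With the replicate block 34 members were higher and 0 lower, and 558 of all were lower. Among the named probe sets the block ended the calls of Rps4x, Rps7, Naca, Rpl7l1, Polr1a and Gar1. With 1 array left out, 28 to 51 members were higher and 0 to 1 lower, 617 to 1278 of all were lower and 7361 to 11722 higher, and the median of the members lay between 0.40 and 0.54. The lowest count was that without Glt25d2 replicate 2. Signs that turned include those of the brighter Rps7 probe set, from -0.032 to 0.058, and of the dimmest of Rps20, up to 0.044. Rps4l ranged from -0.0028 to 0.36 and Rpl22l1 from -0.033 to 0.041. The dimmer Rps15 probe set, at 0.00069 with all arrays, turned to -0.12 without Glt25d2 replicate 3.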
